A study of Mus musculus with 3 samples.

Results

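Immediate early genes are described here as a list of 42 genes. All 42 were found by gene symbol among the 36172 genes of a deposited RNA-seq table, by a rule that uses no measured value. The list itself was chosen with earlier results of these data known, so its comparisons with all genes are descriptive. The table holds 3 libraries of LSK cells, the lineage-negative, Sca-1-positive, c-Kit-positive bone marrow fraction in which hematopoietic stem cells and multipotent progenitors reside. The groups were *Calr* del10/WT, *Calr* ins2/WT and *Calr* WT/WT, called del10, ins2 and WT below. Both knock-in lines carry in their germline 1 frameshifted copy of *Calr*, which encodes the endoplasmic reticulum chaperone calreticulin, beside 1 intact copy, so the mutation is not limited to blood cells. All mice were males of 3 months on the C57BL/6 strain, C57BL/6 J in the study's methods, and each library was an aliquot pooled from 4 of them. Since each genotype has a single library, replicate error is unknown for every difference, and p-values are not given.

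Immediate early genes are transcribed within minutes of a stimulus without new protein synthesis, because the factors that switch them on, such as SRF with its ETS partners, CREB and NF-kappaB, are already in the cell and are activated by MAP kinases, calcium or cytokine receptors. Their mRNAs are short-lived, and many encode transcription factors (the FOS and JUN proteins of AP-1, EGR, NR4A and KLF factors), while others encode inhibitors that end the response, such as phosphatases of MAP kinases, ZFP36 proteins and NF-kappaB inhibitors. In hematopoietic stem cells several of them, among them *Egr1*, *Nr4a1* and *Junb*, restrain proliferation, and in many tissues the same genes are also induced while cells are dissociated and sorted. For the time from marrow harvest to lysis, no source used here gives a value.

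The libraries held 11111698 gene reads in del10, 10967622 in ins2 and 9823095 in WT, made from 5 ng of total RNA each. A normalized count below is a gene's reads times 1 scaling factor per library. Low read counts clustered near 16 reads per gene in del10, 21 in ins2 and 61 in WT, and these were taken as the reads of 1 starting fragment, so by this estimate the WT library rests on the fewest molecules. Genes that lay between 100 and 200 normalized counts in the other libraries were at 0 in 3 of 440 cases in del10, 4 of 435 in ins2 and 134 of 706 in WT. The sort markers went against the label in part. *Kit* had 4177 normalized counts in del10, 3082 in ins2 and 286 in WT. The Sca-1 gene *Ly6a* had 51.9 in del10, 120.1 in ins2 and 145 in WT. The progenitor marker *Cd34* had 1664 in del10, 727 in ins2 and 0 in WT. *Calr* had 7300 normalized counts in del10, 4679 in ins2 and 3800 in WT, a level that does not check the genotype, since a frameshift in the last exon need not change it. In bulk RNA, fewer cells of a type and less RNA per cell cannot be told apart.

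Promoters are shown for 5 of the 8 genes that were over 2-fold higher in del10 than in ins2, since the results turn on these, while those of *Egr1*, *Atf3* and *Gadd45a* are not shown. They are 300-base windows around the start site from RefSeq on GRCm38.p6, written 5′ to 3′ on the gene's strand, with motif matches in capitals.
Fosb (chr7:19309996-19310295, minus strand): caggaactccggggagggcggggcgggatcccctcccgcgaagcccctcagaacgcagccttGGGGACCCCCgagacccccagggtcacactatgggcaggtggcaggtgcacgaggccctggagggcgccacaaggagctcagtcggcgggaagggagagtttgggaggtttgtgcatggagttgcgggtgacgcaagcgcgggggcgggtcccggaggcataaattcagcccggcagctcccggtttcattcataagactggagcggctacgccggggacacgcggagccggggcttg
Fos (chr12:85473640-85473939, plus strand): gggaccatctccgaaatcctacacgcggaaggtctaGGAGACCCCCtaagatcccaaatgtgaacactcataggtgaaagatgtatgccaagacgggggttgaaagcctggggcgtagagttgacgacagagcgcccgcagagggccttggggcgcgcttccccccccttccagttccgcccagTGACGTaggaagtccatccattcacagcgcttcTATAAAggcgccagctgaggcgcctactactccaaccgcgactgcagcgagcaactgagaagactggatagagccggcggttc
Klf6 (chr13:5861239-5861538, plus strand): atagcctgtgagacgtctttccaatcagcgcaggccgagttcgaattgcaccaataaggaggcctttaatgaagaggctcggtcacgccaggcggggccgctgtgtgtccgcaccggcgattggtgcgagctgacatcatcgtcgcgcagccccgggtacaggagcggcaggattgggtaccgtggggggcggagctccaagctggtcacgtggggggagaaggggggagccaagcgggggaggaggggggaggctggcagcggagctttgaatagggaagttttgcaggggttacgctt
Rhob (chr12:8499960-8500259, minus strand): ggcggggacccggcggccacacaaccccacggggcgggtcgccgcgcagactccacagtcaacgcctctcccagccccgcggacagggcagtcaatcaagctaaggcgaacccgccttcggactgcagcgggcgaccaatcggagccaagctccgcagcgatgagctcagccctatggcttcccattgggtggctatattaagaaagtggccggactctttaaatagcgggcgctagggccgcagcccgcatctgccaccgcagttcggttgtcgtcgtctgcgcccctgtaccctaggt
Klf2 (chr8:72318812-72319111, plus strand): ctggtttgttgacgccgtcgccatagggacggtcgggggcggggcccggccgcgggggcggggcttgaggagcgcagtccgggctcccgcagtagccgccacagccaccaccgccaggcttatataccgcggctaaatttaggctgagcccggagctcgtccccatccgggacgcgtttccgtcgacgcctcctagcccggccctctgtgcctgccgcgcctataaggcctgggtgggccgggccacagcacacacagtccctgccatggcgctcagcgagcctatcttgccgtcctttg
The motifs searched on both strands were the CRE core (TGACGT), the AP-1 site (TGANTCA), the STAT site (TTCNNNGAA), the TATA box (TATAAA), the CArG box bound by SRF and the NF-kappaB site. *Fos* held a CRE core that begins 66 bases before its start site, a TATA box at 33 bases and an NF-kappaB site at 214 bases, *Fosb* held an NF-kappaB site at 188 bases, and *Klf6*, *Rhob* and *Klf2* held no match. A promoter window was matched for 33 of the 42 genes. The CRE core was in 10 of these 33 (*Atf3*, *Btg1*, *Btg2*, *Cyr61*, *Dusp1*, *Egr2*, *Fos*, *Maff*, *Nr4a3* and *Tnfaip3*), against 8.78% of the 18619 promoters of all genes. The TATA box was in 9 (13.2% of all promoters) and the NF-kappaB site in 7 (9.11%), namely those of *Fos*, *Fosb*, *Fosl2*, *Ier3*, *Nfkbia*, *Nr4a1* and *Tnfaip3*. The STAT site was in 4 (7.90%), the CArG box in 2 (1.55%) and the AP-1 site in 2 (7.23%). A match is a description of letters and not a bound site, and where there is no match, only these letters are missing from this window.

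The summed level of the immediate early genes was highest in del10. It was 358019 normalized counts in del10, 217570 in ins2 and 189268 in WT, which is 3.16% of all gene reads in del10, 2.02% in ins2 and 1.75% in WT. Of the 42 genes, 36 belonged to the main set of 7073 genes, those averaging 215.3 normalized counts or more over the libraries, and 30 averaged 1000 or more. *Fosl1*, *Egr2*, *Egr3*, *Nr4a3*, *Cyr61* and *Ctgf* lay below the main set. Per kilobase of exon, *Fos* had the highest level of the list in every library, with 20063 normalized counts per kilobase in del10, 8747 in ins2 and 10272 in WT. It was followed by *Fosb* (11957) and *Jun* (11826) in del10, by *Junb* (6931) and *Jun* (6480) in ins2, and by *Jun* (5873) and *Fosb* (5361) in WT.

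**Figure D1:**
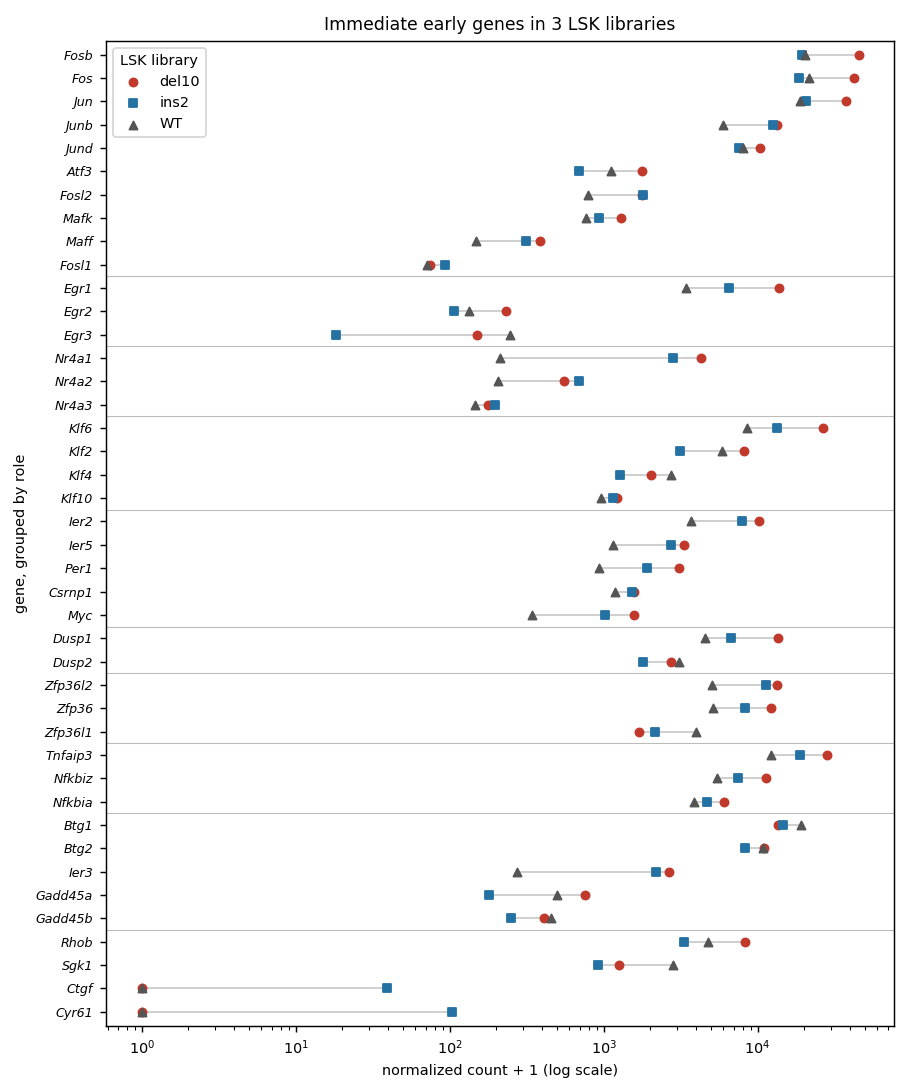
Normalized count plus 1 (log axis) of each of the 42 immediate early genes in the del10 (circles), ins2 (squares) and WT (triangles) LSK libraries, grouped by role, with a line over the range of each gene. The del10 library is the highest for 28 of the 36 genes in the main set, *Nr4a1* and *Ier3* have their low value in WT, and *Cyr61* and *Ctgf* are at 0 in del10 and WT.

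The design text names the knock-in lines, and the study set each of them against WT. In del10 against ins2, 8 of the 36 main-set genes of the list exceeded 2-fold upward and 0 downward, where 3.59% of all main-set genes were higher and 4.03% lower. The 8 were *Gadd45a*, *Atf3*, *Klf2*, *Rhob*, *Fosb*, *Fos*, *Egr1* and *Klf6*. A ratio above 1 was found for 32 of the 36, beside 3586 of all 7073 main-set genes, and the exceptions were *Nr4a2*, *Zfp36l1*, *Btg1* and *Fosl2*. With scaling to all gene reads, or to totals without the ribosomal RNA precursor *Rn45s*, it was found for 31, as *Csrnp1* then lay just below 1. The median log2 ratio was 0.58, beside 0.01 over all main-set genes. The 95% counting interval of the ratio lay wholly above 1 for 23 genes (8.50% of the main set) and wholly below 1 for 0 (7.76%). Among genes averaging 1000 normalized counts or more, where counting is most precise, 7 of 30 were over 2-fold higher and 0 lower, against 0.818% and 0.645% of 2324 genes. The intervals are exact binomial intervals on estimated fragments and cover counting error only, not the variation between mice or sorts.

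**Figure D2:**
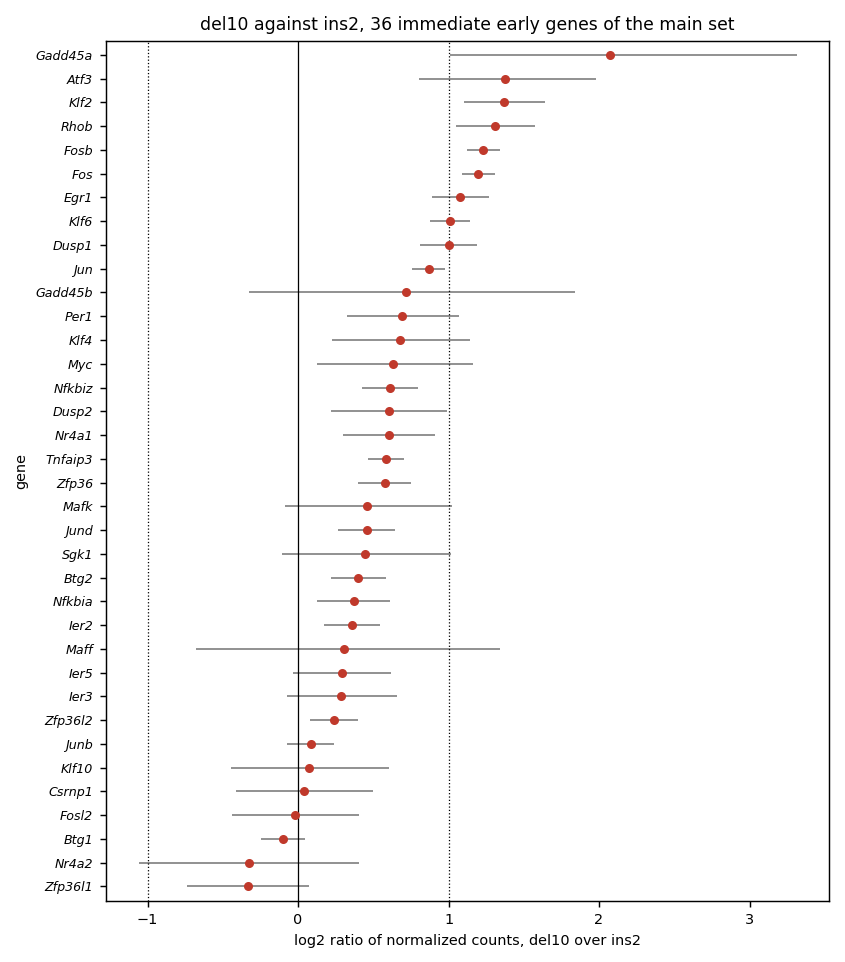
Log2 ratio of del10 to ins2 for the 36 immediate early genes of the main set, ordered by ratio, with 95% exact binomial intervals on estimated fragments and dotted lines at 2-fold. *Gadd45a* lies farthest to the right at 4.20-fold with a wide interval, and 32 of the 36 points lie right of 0.

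The AP-1 factors, which bind DNA as dimers of FOS, JUN and ATF proteins, were led by *Fosb*, *Fos* and *Jun* in total normalized counts. *Fosb* had 45221 normalized counts in del10, 19275 in ins2 and 20274 in WT, 2.35-fold higher in del10 than in ins2 (interval 2.18 to 2.53). *Fos* had 42292 in del10, 18439 in ins2 and 21653 in WT, a ratio of 2.29 to ins2 (2.12 to 2.48). The ratio of del10 to WT was 2.23 for *Fosb* (1.98 to 2.52). That of *Fos* was 1.95 (1.74 to 2.1995), and ins2 was within 2-fold of WT for both genes. *Jun*, the partner of FOS proteins in AP-1, had 37711 in del10, 20664 in ins2 and 18728 in WT, a ratio of 1.82 to ins2 (1.69 to 1.97). *Junb*, which can replace JUN in AP-1 and limits its activity, had 13278 in del10, 12539 in ins2 and 5948 in WT. The knock-in libraries thus lay close together for *Junb* (ratio 1.06, interval 0.952 to 1.18), and it was over 2-fold higher in each of them than in WT. *Jund*, which has been tied to growth restraint, had 10412 in del10, 7591 in ins2 and 8064 in WT. *Fosl2*, which encodes the late FOS protein FRA2, had 1777 in del10, 1800 in ins2 and 788 in WT. *Atf3*, a stress-induced bZIP repressor, had 1785 in del10, 688 in ins2 and 1119 in WT, 2.60-fold higher in del10 than in ins2 (1.75 to 3.95). The small MAF factors, which lack a transactivation domain, had 1286 in del10, 935 in ins2 and 767 in WT for *Mafk*, and 388 in del10, 313 in ins2 and 146 in WT for *Maff*. *Fosl1*, which encodes FRA1, had 73.6 normalized counts in del10, 91.6 in ins2 and 70.4 in WT, and it overlaps *Ccdc85b* on the opposite strand. Whether the counting used strand was not given in the sources used here, so reads of that pair may not have been kept apart.

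*Egr1*, a zinc finger factor induced through SRF and MAP kinases, was ordered del10, ins2, WT from high to low. It had 13736 normalized counts in del10, 6514 in ins2 and 3426 in WT. The ratio of del10 to ins2 was 2.11 (interval 1.85 to 2.41), that of del10 to WT 4.01 (3.02 to 5.43) and that of ins2 to WT 1.90 (1.41 to 2.61). Its relatives were low. *Egr2*, known from hindbrain and lymphocyte development, had 231 in del10, 106 in ins2 and 133 in WT. *Egr3* had 150.2 in del10, 17.2 in ins2 and 245 in WT. The *Egr3* ratio of 8.73 between del10 and ins2 has an interval of 1.08 to 716, as ins2 held about 0.833 fragment.

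Of the NR4A orphan nuclear receptors, *Nr4a1* and *Nr4a2* were over 2-fold higher than WT in both knock-in libraries. *Nr4a1*, which encodes NUR77, had 4306 normalized counts in del10, 2839 in ins2 and 210.0 in WT. It was 20.5-fold higher in del10 than in WT (interval 7.08 to 95.6) and 13.5-fold higher in ins2 than in WT (4.62 to 63.4), but the WT value rests on about 3.13 fragments. *Nr4a2* had 552 in del10, 692 in ins2 and 204 in WT. Its relative *Nr4a3* had 177 in del10, 196 in ins2 and 144 in WT. For neither did the interval of del10 to ins2 lie on 1 side of 1, and that of *Nr4a2* in del10 to WT (0.856 to 13.6) also includes 1.

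Of the KLF factors, *Klf6* followed the order of *Egr1* and *Klf2* did not. *Klf6* had 26761 normalized counts in del10, 13273 in ins2 and 8510 in WT, a ratio of 2.02 to ins2 (1.84 to 2.21) and 3.14 to WT (2.62 to 3.80). *Klf2*, a factor of lymphocyte quiescence and trafficking, had 8119 in del10, 3148 in ins2 and 5907 in WT. The ratio of del10 to ins2 was 2.58 (2.15 to 3.11), while ins2 over WT was 0.533 (0.407 to 0.701), so the low library was ins2. *Klf4*, known from reprogramming to pluripotency, had 2032 in del10, 1272 in ins2 and 2724 in WT, and fell over 2-fold in ins2 against WT (ratio 0.467, 0.309 to 0.712). *Klf10*, a TGF-beta-induced repressor, had 1213 in del10, 1151 in ins2 and 961 in WT, within counting error in all 3 comparisons.

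The other nuclear factors were highest in del10 and lowest in WT, all 5 of them. Of all main-set genes, 31.1% were highest in del10 and 42.8% lowest in WT. *Ier2* had 10147 normalized counts in del10, 7909 in ins2 and 3694 in WT. *Ier5*, a regulator of heat shock factor dephosphorylation, had 3334 in del10, 2724 in ins2 and 1147 in WT. *Per1*, a repressor of the circadian clock, had 3072 in del10, 1901 in ins2 and 932 in WT, 1.62-fold higher in del10 than in ins2 (1.25 to 2.097). *Myc*, a driver of growth and proliferation, had 1573 in del10, 1014 in ins2 and 343 in WT, a ratio of del10 to WT of 4.59 (1.92 to 14.2). These 4 genes were over 2-fold higher than WT in both knock-in libraries. *Csrnp1*, an AXIN-induced nuclear protein, had 1580 in del10, 1536 in ins2 and 1181 in WT and stayed within 2-fold. Its intervals included 1 in each comparison, and with scaling to all gene reads or without *Rn45s* its highest library was ins2.

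Of the 8 genes listed as MAP kinase phosphatases, ZFP36 decay proteins or NF-kappaB inhibitors, 6 were highest in del10, as were 31.1% of main-set genes. Against ins2, 0 of the 8 passed 2-fold, which is near the 3.59% higher and 4.03% lower of all main-set genes. *Dusp1*, a nuclear phosphatase of p38, JNK and ERK, had 13515 normalized counts in del10, 6759 in ins2 and 4579 in WT. Its ratio to ins2, 2.00 (1.76 to 2.28), lay just under the threshold, with a log2 value of 0.9995. *Dusp2*, a phosphatase of ERK and p38 found mainly in immune cells, had 2751 in del10, 1814 in ins2 and 3074 in WT. *Zfp36* encodes tristetraprolin, which binds AU-rich elements and recruits the deadenylation machinery. It had 12272 in del10, 8242 in ins2 and 5156 in WT, a ratio to ins2 of 1.49 (1.32 to 1.69). *Zfp36l2*, a further decay protein of this family, had 13319 in del10, 11278 in ins2 and 5064 in WT, over 2-fold above WT in both knock-in libraries. *Zfp36l1*, of the same family, ran the other way with 1708 in del10, 2147 in ins2 and 3961 in WT, and fell to 0.431 of WT in del10 (0.311 to 0.604). Among genes listed as NF-kappaB inhibitors, *Tnfaip3*, which encodes the ubiquitin-editing enzyme A20, had 28014 in del10, 18701 in ins2 and 12226 in WT. It was 2.29-fold higher in del10 than in WT (1.97 to 2.68). *Nfkbiz*, a nuclear IkappaB protein, had 11318 in del10, 7422 in ins2 and 5436 in WT. *Nfkbia*, which encodes IkappaB-alpha, had 6063 in del10, 4695 in ins2 and 3866 in WT. For these 3 genes the ratio of del10 to ins2 was between 1.29 and 1.53 with intervals above 1.

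The growth arrest and survival genes did not share a pattern. *Gadd45a*, a DNA-damage and stress gene that activates p38, had 751 normalized counts in del10, 179 in ins2 and 500.0 in WT. Its ratio of 4.20 between del10 and ins2 was the highest of the 36, with an interval of 2.01 to 9.93 from 46.1 fragments in del10 and 8.66 in ins2. It overlaps *E230016M11Rik* on the opposite strand, which had 0 reads in del10, 9 in ins2 and 0 in WT. *Gadd45b*, its stress-induced relative, had 410.1 in del10, 249.95 in ins2 and 451 in WT. *Ier3*, a survival gene induced by NF-kappaB, had 2648 in del10, 2171 in ins2 and 272 in WT, where it rests on about 4.05 fragments, 9.75-fold above WT in del10 (3.76 to 35.8) and 7.99-fold in ins2 (3.05 to 29.6). The antiproliferative genes *Btg1* and *Btg2* stayed within 2-fold in all 3 comparisons. *Btg1* had 13575 in del10, 14579 in ins2 and 19052 in WT, the highest gene of the list that peaked in WT. *Btg2*, a p53 target, had 10977 in del10, 8322 in ins2 and 10761 in WT.

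*Rhob*, an endosomal small GTPase that limits proliferation, had 8240 normalized counts in del10, 3324 in ins2 and 4740.0 in WT, 2.48-fold higher in del10 than in ins2 (2.07 to 2.98). *Sgk1*, a serum- and glucocorticoid-induced kinase, had 1250 in del10, 917 in ins2 and 2812 in WT, and was over 2-fold lower than WT in both knock-in libraries. The matricellular genes *Cyr61* and *Ctgf*, targets of YAP and SRF in adherent cells, had 103 and 38.4 normalized counts in ins2 and 0 in both other libraries. With a floor of 3 reads for each library at 0, *Cyr61* was 33.8-fold lower in del10 than in ins2 by reads and *Ctgf* 12.6-fold. That floor is under 1 fragment, so these values are not bounds. By fragments, the upper bound of the interval was 0.861 for *Cyr61* and 4.96 for *Ctgf*, so the *Ctgf* difference was not detectable when fragments are counted. The *Cyr61* bound rests on about 5 fragments in ins2 and depends on the approximate fragment size.

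The comparisons with WT share the WT library, and their values are therefore given side by side. In del10 against WT, 19 of the 36 genes were over 2-fold higher and 2 lower (*Zfp36l1* and *Sgk1*), against 15.3% and 10.2% of main-set genes. In ins2, 11 exceeded 2-fold upward and 3 downward relative to WT (*Sgk1*, *Gadd45a* and *Klf4*), against 15.7% and 10.7%. The median log2 ratio was 1.03 in del10 and 0.33 in ins2, beside 0.04 in each over all main-set genes. Intervals lay above 1 for 22 genes in del10 (10.9% of the main set) and below 1 for 3 (10.1%), while in ins2 they lay above 1 for 16 (10.5%) and below 1 for 9 (10.3%). The low fragment number of WT touches each of these counts, and among the 30 genes that averaged 1000 or more the counts were 16 higher and 2 lower in del10 (8.82% and 6.80% of such genes) and 8 higher and 2 lower in ins2 (8.86% and 7.83%).

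**Figure D3:**
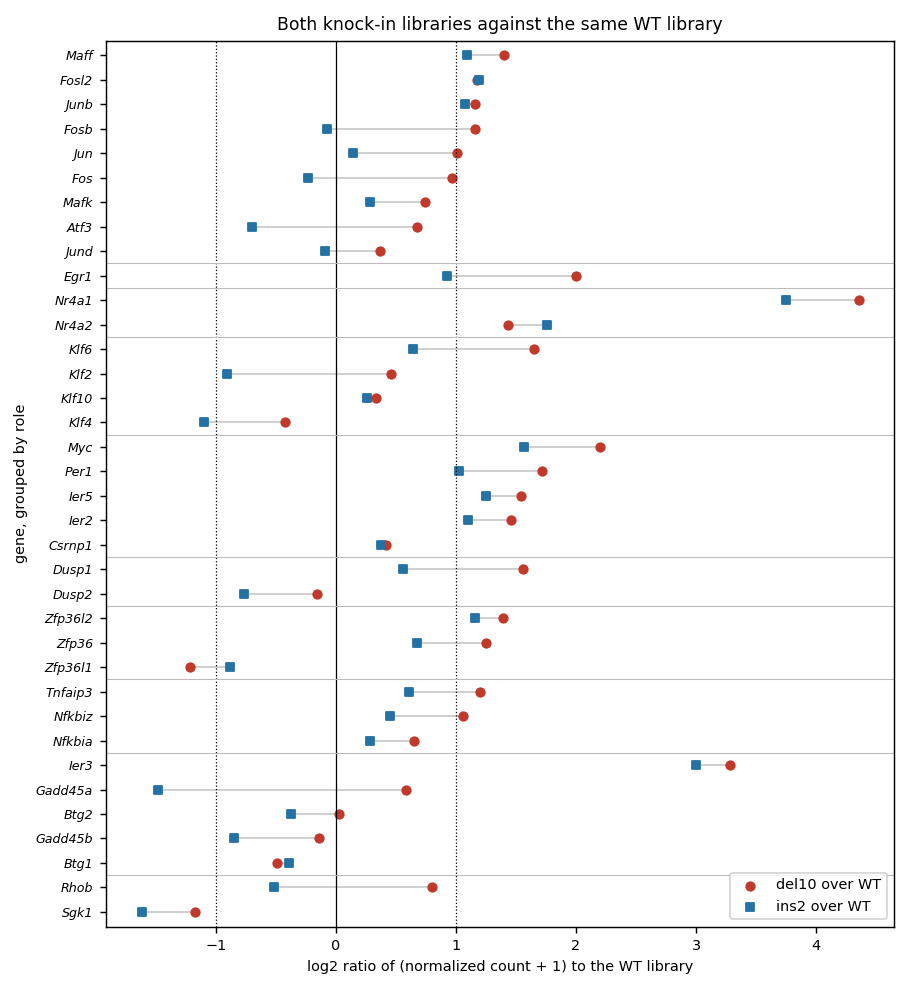
Log2 ratio of (normalized count + 1) of del10 (circles) and ins2 (squares) to the same WT library for the 36 immediate early genes of the main set, grouped by role, with dotted lines at 2-fold. *Nr4a1* and *Ier3* lie far right for both, and *Fos*, *Fosb*, *Klf2*, *Rhob* and *Gadd45a* lie right of 0 for del10 and left of 0 for ins2.

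The order of the libraries split the list. The level ran del10, ins2, WT from high to low for 20 genes, among them *Egr1*, *Jun*, *Klf6*, *Dusp1*, *Myc* and *Tnfaip3*. It ran del10, WT, ins2 for 8 genes, namely *Fos*, *Fosb*, *Jund*, *Atf3*, *Btg2*, *Klf2*, *Rhob* and *Gadd45a*. The highest library was del10 for 28 of the 36 genes (31.1% of main-set genes), ins2 for *Fosl2* and *Nr4a2* (30.4%), and WT for *Dusp2*, *Zfp36l1*, *Btg1*, *Klf4*, *Gadd45b* and *Sgk1* (38.5%). The lowest library was WT for 22 genes (42.8% of main-set genes) and ins2 for 12 (28.9%). The count highest in del10 was 27 with median-of-ratios factors, where *Btg2* was highest in WT. It was 26 with scaling to all gene reads or without *Rn45s*, where *Csrnp1* was also highest in ins2. Many of these orders rest on gaps within counting error. Of the 20 genes ordered del10, ins2, WT, the intervals against both other libraries left out 1 for del10 in 13, and each step of the order did so in 11. Of the 8 ordered del10, WT, ins2 these numbers were 5 and 3 (*Fos*, *Klf2* and *Rhob*). The highest library was apart in the same way for 3 of the 6 genes that peaked in WT (*Btg1*, *Sgk1* and *Zfp36l1*) and for 0 of the 2 that peaked in ins2. No share over all genes is given for the whole orders or for the genes apart by interval.

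**Figure D4:**
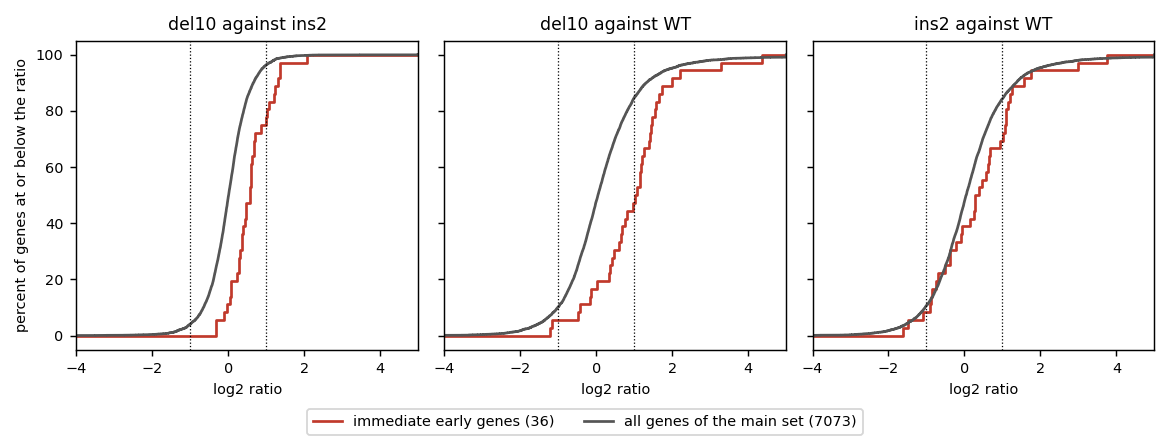
Percent of genes at or below each log2 ratio for the 36 immediate early genes (red) and all 7073 main-set genes (grey) in del10 against ins2, del10 against WT and ins2 against WT, with dotted lines at 2-fold. The red curve lies to the right of the grey one over most of its range in both del10 comparisons (medians 0.58 and 1.03), and nearer to it in ins2 against WT (median 0.33).

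The genes share transcript features that the choice by symbol did not use. Their genes were short, with a median span of 4656 bases and 4 exons for the 36 in the main set, against 26379.5 bases and 11 exons over 6962 main-set genes with a coding transcript. A single exon was annotated for 6 of the 36 (*Ier2*, *Ier5*, *Jun*, *Junb*, *Jund* and *Rhob*), against 1.80% of all. The heptamer TATTTAT, the core of AU-rich elements that ZFP36 proteins bind, was in the longest annotated 3′ UTR of 24 of the 36, against 33.3% of all. At least 3 copies were found in 6 (*Fosl2*, *Dusp1*, *Ier3*, *Zfp36*, *Zfp36l1* and *Zfp36l2*), against 4.47% of all. The density was 0.854 per kilobase of 3′ UTR, against 0.285. Of the 8 genes over 2-fold higher in del10 than in ins2, 6 held the heptamer, as did 18 of the other 28. The site is shown, in capitals, for an induced factor, a decay protein that binds such sites and a phosphatase. Each is given with its flanks from the GENCODE vM21 transcript sequence.
Fos (chromosome 12, from base 656 of the 3′ UTR): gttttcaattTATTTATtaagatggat
Zfp36 (chromosome 7, from base 575 of the 3′ UTR): gtgggcccttTATTTATgacgacttta
Dusp1 (chromosome 17, from base 104 of the 3′ UTR): agctggtcctTATTTATttaacacccc

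Related genes outside the list were read by the same measures. Of 37 other immediate early and primary response genes, 27 were in the main set, and in del10 against ins2 4 were over 2-fold higher and 0 lower, beside 3.59% and 4.03% of all main-set genes, with a median log2 ratio of 0.47. *Plk2*, a kinase of centrosome and synapse regulation, had 1264 normalized counts in del10, 278 in ins2 and 2416 in WT. *Cited2*, a coregulator that binds CBP and p300, had 981 in del10, 413 in ins2 and 245 in WT. *Phlda1*, which encodes a pleckstrin homology domain protein, had 168 in del10, 38.4 in ins2 and 573 in WT. Its interval of del10 to ins2 includes 1 (0.907 to 46.1). Of 14 factors that act on immediate early promoters, 13 were in the main set, 0 were higher and 2 lower, with a median of -0.10. *Srf* itself had 777 in del10, 419 in ins2 and 44.0 in WT, under 1 fragment in WT. *Crem*, a cAMP-response modulator, had 49.4 in del10, 335 in ins2 and 274 in WT. *Elk3*, an SRF partner, had 560.4 in del10, 1124 in ins2 and 243 in WT. Of the kinases of the MAP kinase cascade, 0 of 22 main-set genes passed 2-fold in either direction, with a median of 0.05, and of the NF-kappaB components 0 of 9, with a median of -0.18. These zeros are near the shares of all main-set genes and say nothing particular about either list.

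Genes listed as inducible heat shock genes, which encode chaperones and co-chaperones, moved with the immediate early genes between del10 and ins2. Of 9 in the main set, 4 were over 2-fold higher in del10 than in ins2 and 0 lower, beside 3.59% and 4.03% of all main-set genes. The median log2 ratio was 0.87, and their summed level over all 11 was 47686 normalized counts in del10, 29361 in ins2 and 42003 in WT. Much of each sum was *Hspa8*, with 24301 in del10, 17074 in ins2 and 21497 in WT. *Hspa1a*, the stress-induced HSP70, had 1568 in del10, 3.44 in ins2 and 766 in WT, where the ins2 value is under 1 fragment. Its near-identical copy *Hspa1b*, with which it can share reads, had 1359 in del10, 33.0 in ins2 and 863 in WT, so the pair is not independent. *Hsph1*, an HSP110 chaperone, had 1484 in del10, 554 in ins2 and 1744 in WT. In *Hspa8*, *Hspa1a*, *Hspa1b* and *Hsph1* the low library was ins2, as it was in *Dnajb1* and *Hsp90aa1*. Other main-set genes of the list ran otherwise. *Hspe1* was lowest in del10, with 257 in del10, 385 in ins2 and 523 in WT. *Dnaja1* (4219 in del10, 2305 in ins2 and 2126 in WT) and *Hspd1* (2758 in del10, 2089 in ins2 and 1305 in WT) were lowest in WT. *Hspb1*, a small heat shock protein gene, was at 0 in ins2 and WT and the co-chaperone gene *Bag3* in WT. The summed levels of cell type markers differed between the libraries as well. Stem and progenitor markers summed to 9762 normalized counts in del10, 7107 in ins2 and 1237 in WT (5 of 9 in the main set, with *Procr* at 0 in ins2 and *Cd34*, *Mecom* and *Procr* at 0 in WT). Markers of basophils and mast cells summed to 32954 in del10, 24196 in ins2 and 2170 in WT (6 of 7 in the main set, *Ms4a2* at 0 in all 3), and B-lineage markers to 13888 in del10, 15494 in ins2 and 57109 in WT (11 of 11, none at 0). T and NK cell markers summed to 5825 in del10, 12406 in ins2 and 5414 in WT, with *Cd3g* at 0 in WT. Much of each sum was *Il2rb* (2777 in del10, 5884 in ins2 and 2291 in WT), while *Cd2* was lowest in ins2 (706 in del10, 588 in ins2 and 850 in WT). Markers of monocytes and macrophages summed to 2325 in del10, 4779 in ins2 and 1369 in WT, with 2 of 8 in the main set and 5 at 0 in WT. Most of each sum was *Ccr2* (1788 in del10, 3389 in ins2 and 1015 in WT), while *Lyz2* had 113 in del10, 264 in ins2 and 269 in WT. Neutrophil markers summed to 4185 in del10, 2171 in ins2 and 1766 in WT, with *Camp*, *Lcn2*, *Ltf*, *Ngp* and *S100a8* at 0 in all 3. Most of each sum was *Mpo*, with 2972 in del10, 1581 in ins2 and 1034 in WT. *Elane* was highest in WT, with 129 in del10, 104 in ins2 and 418 in WT. Erythroid markers summed to 6898 in del10, 5779 in ins2 and 9388 in WT. Within that list the globin genes *Hba-a1* and *Hbb-b1* were highest in WT, while *Klf1* was highest in del10 (464, beside 143 in ins2 and 113 in WT). Megakaryocyte markers summed to 5067 in del10, 3261 in ins2 and 1761 in WT. Most of each sum was *Itga2b* (4286 in del10, 2775 in ins2 and 987 in WT), while *Vwf* was highest in WT (326 in del10, 318 in ins2 and 456 in WT). Markers of stroma and endothelium summed to 4436 in del10, 6182 in ins2 and 10495 in WT. Of their main-set genes, *Pdgfrb* ran against the sum, with 616 in del10, 139 in ins2 and 71.5 in WT. The part of heat shock genes, cell type markers and library depth in the levels of the immediate early genes was not tested.

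**Figure D5:**
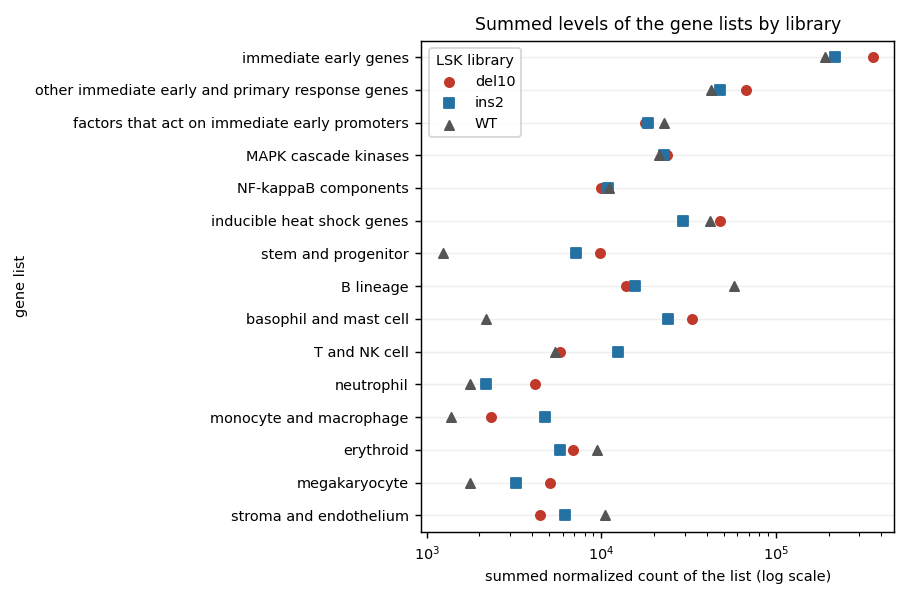
Summed normalized count (log axis) of the immediate early genes and of each other gene list in the del10 (circles), ins2 (squares) and WT (triangles) LSK libraries. The immediate early genes sum to 358019 in del10, 217570 in ins2 and 189268 in WT, the MAP kinase and NF-kappaB lists lie close together, and the stem, B-lineage and basophil lists spread widely.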

How the data were processed

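RNA-seq of 3 LSK libraries, 1 per genotype, was analysed from 1 deposited table. Per the labels, RNA was depleted of ribosomal RNA and read as 75-base reads. After trimming and alignment to mm10, the authors deposited an estimated count per RefSeq gene (2013 models, StrandNGS 3.2). Tools named in the submitters' processing notes are TopHat2 2.1.1, Bowtie2 2.2.3, bcl2fastq 2.20 and Trimmomatic 0.32. A log2 value scaled by the authors with the trimmed mean of M-values was deposited beside each count, and 1 factor per library was recovered from it (1.02 in del10, 0.984 in ins2 and 1.10 in WT).

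Normalized counts are the estimated counts times these factors. Ratios used log2(normalized count + 1), and called genes were past 2-fold. Of 14145 detected genes, 7073 at or above the median of the mean level formed the main set. Counts were divided by the commonest low read count (searched from 5 to 150, smoothed over 5 counts to either side) and given exact binomial 95% intervals. This unit was chosen after the data were examined and is approximate, and a further estimate from zeros gave 28.7 reads in del10, 31.8 in ins2 and 79.9 in WT. Values of 0 were given a floor of 3 reads, under 1 fragment.

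The members and lists were chosen with earlier results of these data known. All 42 members are named, and of other described lists up to 3 main-set genes with the largest absolute log2 ratio of del10 to ins2, in either direction. *Ly6a*, *Cd34* and *Kit* check the sort label, and *Calr* is given as the targeted gene. Some marker and heat shock genes are named because they were at 0, gave much of a sum or ran against it. Exon lengths and 3′ UTRs came from GENCODE vM21, promoters from RefSeq. The steps were tested on simulated data. Of 14 alternatives, 2 were added after the data were seen. Python 3.11.15, NumPy 2.4.6, pandas 2.3.3, SciPy 1.17.1 and matplotlib 3.10.9 were used.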

Additional observations from a re-analysis of the deposited data

How the results depend on the processing

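No paired analysis was possible because each genotype had 1 library, and for the same reason no library could be left out. Under 14 alternatives (other pseudocounts, filters, scalings, thresholds, zeros and intervals, and the mean in place of the median) no difference past 2-fold changed direction. Of the summary values, 130 stayed near the value reported and 14 moved. Log2 ratios of single genes stayed inside the counting interval of the reported ratio in 756 of 756 cases, but that interval is wide for low genes. With pseudocounts of 0.5 and 10, del10 against ins2 was -7.70 and -3.50 for *Cyr61* (-6.70 reported) and -6.28 and -2.27 for *Ctgf* (-5.30), and *Egr3* was 2.56 with 10 (3.05). Values near 0 changed sign. *Csrnp1* in del10 against ins2 (0.04) was -0.03 with scaling to all gene reads and -0.0068 without *Rn45s*. In del10 against WT, *Btg2* (0.03) was -0.04 with all gene reads, -0.011 with median-of-ratios factors and -0.0087 without *Rn45s*, and *Fosl1* (0.06) was -0.0033 with all gene reads. In del10 against ins2, the count over 2-fold lower was 2 with no filter on low counts (*Cyr61* and *Ctgf*), where 14.2% of all genes kept were lower. The count with an interval below 1 was 1 with no filter, 1 with scaling to all gene reads, 1 with totals without the ribosomal RNA precursor *Rn45s* and 3 with reads as the unit, against 0. The count higher was 17 at 1.5-fold (12.4% of main-set genes) and 1 at 4-fold (0.254%), against 8. With scaling to all gene reads or to totals without *Rn45s*, 7 genes were over 2-fold higher, as *Klf6* had log2 ratios of 0.94 and 0.96. The shares of main-set genes were 2.97% and 3.18%. In del10 against WT, 4 were higher and 0 lower at 4-fold (4.75% and 1.74% of main-set genes), and intervals lay below 1 for 5 by reads. In ins2 against WT, 8 of 36 were lower at 1.5-fold, which is near the 21.8% of main-set genes. At 4-fold 2 were higher and 0 lower (4.55% and 1.74%), and intervals lay below 1 for 14 by reads. For the interval counts under these alternatives, no share over all genes is given. The changes at other thresholds follow from the threshold itself, and reads narrow each interval by construction. The few fragments of WT limit ratios to WT, as does having 1 library per genotype, and those of *Nr4a1*, *Ier3*, *Nr4a2* and *Maff* rest on under 5 fragments there.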
